A study of Mus musculus with 4 samples.

Results

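Across 4 single-cell libraries of mouse tumour leukocytes, the UMIs of 8 genes were followed in macrophages, monocytes and dendritic cells (DCs): P3h2, St8sia6, Gfra2, Fat3, Adam23, Stac, Asb2 and Slco2b1. They are 8 of the 33696 genes of the matrices, and they were chosen by the change of their UMIs between these same libraries, so their ratios to the untreated library are given as descriptions, without a test. Male C57BL/6 mice carried subcutaneous tumours of KPC, a pancreatic carcinoma line derived from genetically engineered mice with Pdx1-driven Cre, and live CD45+ cells were sorted from tumours resected on day 14. The untreated group received neither agent. The ADU-S100 group received this STING agonist once into the tumour, the anti-LTβR group received the agonistic antibody 4H8 against the lymphotoxin-β receptor repeatedly by intraperitoneal injection, and the combination group received both. Sets of 4 values below follow this order, and sets of 3 ratios give ADU-S100, anti-LTβR and combination over untreated. Each group was 1 library made from pooled tumours of 1 cell line, so a treatment cannot be told apart from its library, and every interval below is a 95% interval that covers counting error only.

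STING is a cytosolic sensor pathway that ends in type I interferon and NF-κB signalling in myeloid cells. The lymphotoxin-β receptor signals through NF-κB and is known for the organisation of lymphoid tissue by stromal cells and for the upkeep of some dendritic cells. Tumour macrophages arise largely from blood monocytes and can also descend from tissue-resident cells, and conventional DCs divide into cDC1, which cross-present antigen to CD8 T cells, and cDC2, which present mainly to CD4 T cells. The question put to the libraries was whether a gene's level differed because the mix of these cells differed or because the level differed inside a given kind of cell.

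The 8 genes have diverse functions. P3h2 encodes prolyl 3-hydroxylase 2, which modifies collagen chains, and St8sia6 encodes a sialyltransferase that adds sialic acid to sialic acid and makes ligands for Siglec receptors. Gfra2 encodes the co-receptor for neurturin, which signals with Ret, Fat3 encodes a giant atypical cadherin, and Adam23 encodes a member of the ADAM family that lacks protease activity. Stac encodes an adaptor protein with an SH3 domain, Asb2 encodes the substrate-binding subunit of a cullin ubiquitin ligase whose known targets are filamins, and Slco2b1 encodes an organic anion transporter. All 8 are protein-coding genes. Their spans are given on GRCm38, the build that the processing notes name as mm10, though the file headers name a later Cell Ranger version than those notes. They place P3h2 (ENSMUSG00000038168) at chr16:25959288-26105784 (minus strand), St8sia6 (ENSMUSG00000003418) at chr2:13651021-13794064 (minus strand), Gfra2 (ENSMUSG00000022103) at chr14:70890120-70979838 (plus strand) and Fat3 (ENSMUSG00000074505) at chr9:15910189-16501285 (minus strand). The same annotation places Adam23 (ENSMUSG00000025964) at chr1:63445891-63596276 (plus strand), Stac (ENSMUSG00000032502) at chr9:111561437-111690348 (minus strand), Asb2 (ENSMUSG00000021200) at chr12:103321142-103356001 (minus strand) and Slco2b1 (ENSMUSG00000030737) at chr7:99657804-99711340 (minus strand). UMIs were counted per gene and are not tied to an exon or intron here.

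One promoter is shown because its gene, Asb2, had lower levels in macrophages and DCs of all 3 treated libraries and because its window was the only one among the members to hold the core of an interferon response element. The sequence is from RefSeq on build GRCm38.p6, lies on the minus strand at chr12:103356002-103356251 and covers the 250 bases before the annotated start, 5′ to 3′. The capitals mark GAAANNGAA read on the opposite strand.
Asb2: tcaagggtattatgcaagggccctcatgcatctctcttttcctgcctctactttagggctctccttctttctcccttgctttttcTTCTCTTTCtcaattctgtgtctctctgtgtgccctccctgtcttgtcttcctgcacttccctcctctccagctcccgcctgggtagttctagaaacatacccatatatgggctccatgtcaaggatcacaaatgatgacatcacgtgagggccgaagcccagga
RefSeq windows were matched for 6 of the 8 members, 9 windows in all, on chromosomes 1 (Adam23), 2 (St8sia6), 7 (Slco2b1), 9 (Fat3 and Stac) and 12 (Asb2). GAAANNGAA was searched on both strands and stood in 8.56% of all 32851 windows, GAGGAAGT, the PU.1-type string, in 3.2% and in 1 window of Slco2b1, and GGGANNTTC, the NF-κB-type string, in 3.94% and in no member window. A match is a string of letters and does not show that a factor binds there.

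The matrices held 8730, 15404, 14634 and 16322 cells with 52109958 to 85855398 UMIs per library, and 7524, 13444, 13223 and 14667 cells were kept. Macrophages and monocytes made up 3958, 5729, 7244 and 7859 kept cells at median depths of 5879, 6382, 4375 and 2506 UMIs, and DCs made up 614, 441, 662 and 654. The label of sorted leukocytes held for most cells, but 151 to 275 cells per library were carcinoma-like. All 15 macrophage markers were present in the macrophage class, at a summed level of 17680 to 21399 CPM (UMIs of a gene or list per 1000000 UMIs of the class) against 738 to 1314 CPM in DCs, and all 12 DC markers in the DC class, at 3362 to 4136 CPM against 137 to 225 CPM in macrophages. The neutrophil list stood at 474 to 877 CPM in macrophages and 1506 to 2561 CPM in DCs. Its genes Cxcr2 and Retnlg had no UMI in untreated DCs, and Mmp9 had none in DCs of the antibody libraries. Whether this sum in DCs came from neutrophils was not tested. Between 34 and 83 cell barcodes were shared by each pair of libraries, which is 0.355 to 0.539% of the smaller one, and 356, 640, 655 and 1221 cells in clusters led by genes of another class were set aside.

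Macrophages and monocytes were divided into 8 subsets named from marker genes and 5 unnamed clusters, and DCs into 4 named subsets and 7 unnamed clusters. The mix of subsets differed between libraries. The subset named for the complement genes C1q, which passed 7 of its 8 markers and was led by Ch25h and Mmp2, held 30.7% of macrophage UMIs in the untreated library and 18.2%, 12.6% and 16.8% in the treated ones. The subset with Folr2 and Cd163, markers of resident-type macrophages, held 4.54, 1.77, 7.7 and 2.59%. Monocyte-like cells with MHC class II genes and Ccr2 held 15.7, 9.56, 19 and 21.7%, and cycling cells held 10.5, 4.09, 6.37 and 9.19%. Among DCs, the cDC1-like share of UMIs was highest in the untreated library, at 28% against 15.9, 17.2 and 21.8%. The cDC2-like share was 4.93 and 5.4% without the antibody and 13.3 and 13.9% with it. The cDC2-like cluster passed 4 of its 7 markers, but its leading genes included Ear2, Ccl9 and Mrc1 beside Cd209a, and it carried the macrophage list at 2704, 1365, 3676 and 3658 CPM against 2344, 1776, 2157 and 1892 CPM of the DC list. Its values below are those of cells with genes of both classes, and the part of this in them was not tested. These shares set how much of a difference can come from the mix alone. Fewer cells of a subset and less RNA per cell cannot be told apart in a sum over the class.

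**Figure D1:**
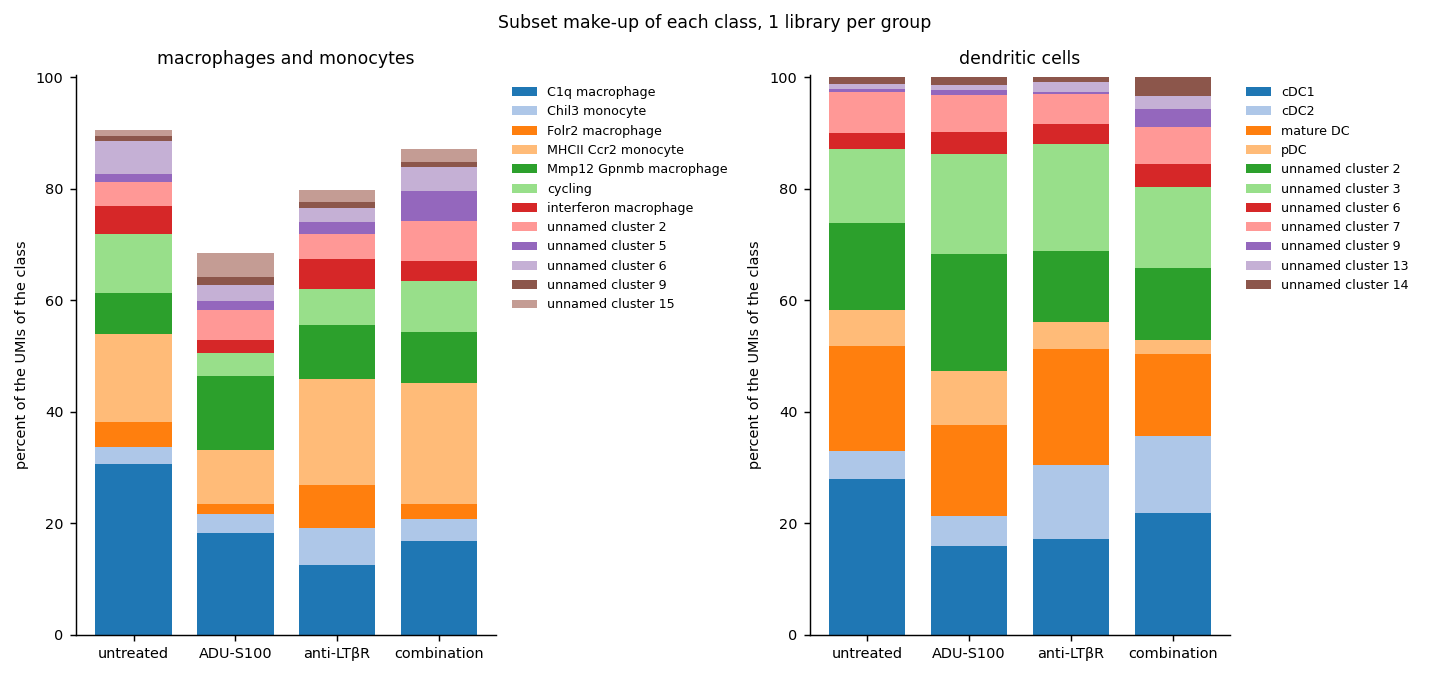
Percent of the UMIs of the macrophage and monocyte class (left) and of the dendritic class (right) that each subset holds, 1 stacked bar per library. The C1q subset is the widest in the untreated library (30.7%) among those drawn, and the cDC2-like subset holds 13.3 and 13.9% of dendritic UMIs in the 2 libraries that received the antibody. One macrophage subset is not drawn, so the left bars stop short of the whole class.

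For each gene, the summed ratio compares CPM over the whole class. The within-subset ratio compares levels with the subset mix held at that of the untreated library, and the shift ratio changes only the mix and keeps the untreated level of each subset. A ratio is called past 2-fold when its log2 value is at least 1 in size and its interval leaves out no difference. In macrophages and monocytes, 17 of the 24 summed ratios were past 2-fold (9 higher, 8 lower) and 13 of the 24 within-subset ratios were (10 higher, 3 lower). Over all genes with at least 200 UMIs in both libraries together, the share past 2-fold was 4.88% with ADU-S100, 1.6% with anti-LTβR and 1.71% with the combination, and 1.68%, 0.737% and 1.09% within subsets. In DCs, 8 of the 24 summed ratios (5 higher, 3 lower) and 10 of the 24 within-subset ratios (7 higher, 3 lower) were past 2-fold, beside 1.45%, 0.725% and 1.7% of all genes summed and 0.743%, 0.445% and 0.665% within subsets. Because the members were chosen for these differences, their counts are a description and nothing is read from the excess. Only 4, 6 and 5 of the 8 members reached 200 UMIs in the 3 macrophage comparisons and 2, 3 and 2 in the DC comparisons, so all 8 are described here whatever their counts. The median log2 ratio of the 8 members in macrophages was -0.87, 0.49 and 0.92, beside -0.21, -0.05 and -0.08 for all genes tested. Within subsets it was -0.09, 0.78 and 0.83, beside -0.10, -0.0019 and -0.05. The ADU-S100 median was thus near that of all genes at a fixed mix. It stood over members on both sides, from a log2 ratio of 2.05 for P3h2 to -1.83 for Asb2, so it does not show that the mix held the differences.

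**Figure D2:**
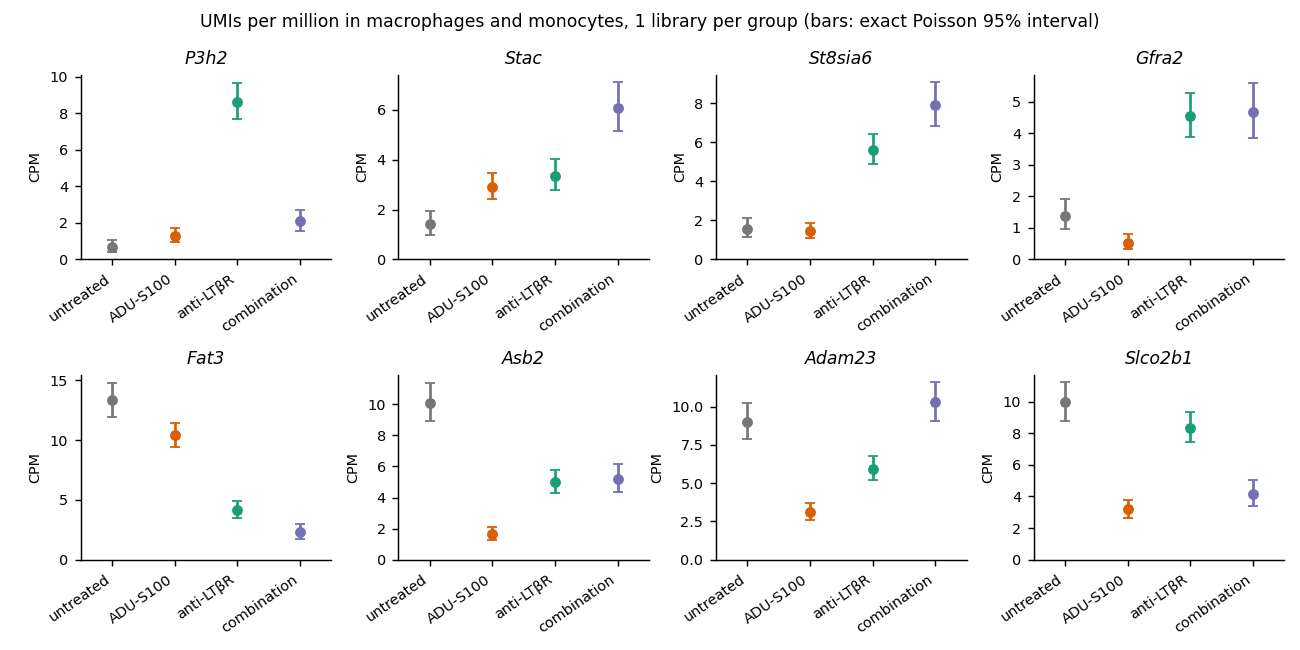
CPM (linear axis from 0) of each of the 8 genes summed over macrophages and monocytes of the 4 libraries, with exact Poisson 95% intervals as bars. P3h2 peaks with anti-LTβR alone (8.65), Stac, St8sia6 and Gfra2 are highest with the combination (6.07, 7.90 and 4.67), Fat3 is highest untreated (13.4), and Asb2, Adam23 and Slco2b1 are lowest with ADU-S100 (1.66, 3.13 and 3.18) or, for Slco2b1, nearly as low with the combination (4.15).

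P3h2 was the member with the largest difference within macrophages. Its 17, 52, 311 and 52 UMIs corresponded to 0.650, 1.29, 8.65 and 2.08 CPM, and they came from 10, 25, 146 and 40 cells. The anti-LTβR library stood alone at the top, and the combination library stood far nearer to the ADU-S100 library. Neutrophils were also highest there, with 11 UMIs (4.77 CPM) in the anti-LTβR library and 0 in the other 3. Carcinoma-like cells held 19.3, 24.1, 7.73 and 9.84 CPM, lowest with anti-LTβR and above the macrophages in every other library. The untreated macrophage level was below the 0.908 CPM of T cells, a class in which the gene stood at 0.799 to 2.13 CPM, but the 5 untreated T cell UMIs came from 1 cell. Thinned shares were 0.0958, 0.295, 1.35 and 0.310% of macrophages against 0, 0.213, 0.251 and 0.0983% of T cells. Over untreated, the 3 treated libraries stood at 1.95 (1.13 to 3.67), 12.9 (8.17 to 23.1) and 3.13 (1.82 to 5.89). With the subset mix held fixed they were 4.14 (2.40 to 7.15), 14.1 (8.67 to 23.0) and 4.02 (2.33 to 6.96), and the shift ratios were 0.429, 1.39 and 0.616. The mix thus lowered the summed level with ADU-S100 and the combination, where Folr2 macrophages were scarce. The anti-LTβR ratio stayed far above 2 inside subsets, at 14.1 with the untreated mix as standard and at 9.28 with its own mix. The ADU-S100 ratio over the class was 3.32 with equal weight for each cell, 2.19 without the cell of most UMIs in each library and 2.07 in cells of at least 2000 UMIs, all past 2-fold. With the T cell level subtracted, no ratio of P3h2 in macrophages was past 2-fold by the rule. The untreated level was then 0, through the UMIs of that 1 T cell, and the intervals became very wide. All 3 treated libraries stayed above their own T cells.

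Most P3h2 UMIs of the class, 51.9%, lay in the Folr2 subset, where the gene was counted 13, 15, 185 and 11 times, at 10.95, 21.0, 66.8 and 16.9 CPM. The anti-LTβR ratio inside this subset was 5.89 (3.48 to 11.7), and the intervals of the ADU-S100 ratio of 1.91 (0.853 to 4.39) and the combination ratio of 1.56 (0.627 to 3.74) included no difference. Another 24.8% lay in an unnamed cluster led by Mb21d2, Zdhhc14 and Agmo, with 2, 26, 69 and 10 UMIs and ratios of 14.5 (4.46 to 155), 47.9 (15.9 to 501) and 6.14 (1.56 to 68.6) over a count of 2. That cluster had median depths of 1669 to 2860 UMIs per cell and only 4319 to 6187 CPM of the macrophage list, against 31559 to 34275 CPM in C1q macrophages. Macrophages with a P3h2 UMI also carried more of the DC list, 297, 1449, 798 and 977 CPM against 132 to 220 CPM in those without, and the part of mixed droplets in the result was not tested.

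In DCs, P3h2 was a gene of the cDC1-like subset, which held 80.5% of its DC UMIs. Over the whole class, 71, 74, 97 and 66 UMIs gave 15.2, 21.9, 21.8 and 25.6 CPM, and ratios of 1.44, 1.43 and 1.68, none past 2-fold. With equal weight for each cell, the ADU-S100 and combination ratios were 2.26 and 2.15, both past 2-fold. Inside the cDC1-like subset the levels were 40.6, 85.9, 117 and 107 CPM, with ratios of 2.12 (1.40 to 3.21), 2.87 (2.03 to 4.12) and 2.63 (1.79 to 3.88). The 3 treated libraries were all higher than the untreated one there. A smaller cDC1 share hid this in the sum: the shift ratios were 0.647, 0.741 and 0.782 and the within-subset ratios 2.10, 2.24 and 2.08. These values lie close to 2, and 5 of the alternative settings took 1 or more of them under 2, the lowest to 1.73. In mature DCs the gene was counted 18, 16, 7 and 0 times, with ratios of 1.41 (0.670 to 2.92) for ADU-S100 and 0.385 (0.130 to 0.926) for anti-LTβR, and it was listed at 0 with the combination.

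St8sia6 was counted 41, 58, 202 and 198 times in macrophages and monocytes, at 1.57, 1.44, 5.62 and 7.90 CPM. Both libraries that received the antibody were higher than both that did not. The ratios were 0.916 (0.605 to 1.41), 3.55 (2.55 to 5.14) and 4.99 (3.59 to 7.24), within-subset ratios were 1.41, 3.10 and 4.16, and the shift ratios of the antibody libraries were 1.08 and 0.972, so the mix of subsets accounted for little of the difference. The MHC class II and Ccr2 monocyte-like cells held 39.5% of the UMIs, at 2.92, 5.46, 12.4 and 14.6 CPM, with ratios of 4.10 (2.31 to 8.55) and 4.82 (2.70 to 10.1) for the antibody libraries. A shallow unnamed cluster led by Plcb1 and Arhgap26 had 4, 10, 28 and 48 UMIs. Of the subsets with at least 10 UMIs over both libraries, 7 of 7 were higher with anti-LTβR and 5 of 5 with the combination.

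The St8sia6 levels were low beside those of lymphocytes. B cells held the gene at 92.6, 100, 145 and 141 CPM, and T cells at 4.00, 5.19, 8.98 and 13.4 CPM, above the macrophage level in each library. After thinning each cell to 2000 UMIs, 0.294, 0.367, 1.19 and 1.32% of macrophages and 0.941, 1.11, 1.25 and 1.575% of T cells had a UMI. By this comparison the macrophage share did not exceed that of T cells. Neutrophils, where 0 to 6 UMIs per library were counted, had 0, 0.158, 2.60 and 2.91 CPM, also higher in the antibody libraries. With T cell levels subtracted, the St8sia6 level of macrophages was 0 in every library, so no ratio could be past 2-fold there. B cells numbered 110, 72, 536 and 1037 in the 4 libraries, and the B list stood in macrophages at 0.0468 to 0.376% of its B cell level, against 1.43 to 5.62% for St8sia6. The part of free or carried-over B cell RNA in the macrophage values was not tested.

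In DCs St8sia6 had 29, 6, 44 and 31 UMIs, at 6.21, 1.78, 9.91 and 12.0 CPM. The ADU-S100 library was the low one, with a ratio of 0.305 (0.0971 to 0.701) and a within-subset ratio of 0.239, and the antibody libraries were at 1.59 and 1.93 times the untreated level. The combination ratio lay near the line and was past 2-fold at 4 other settings, at up to 2.19, and the ADU-S100 call was lost with T cell levels subtracted, where the interval widened. The cDC2-like subset, with 2, 1, 24 and 13 UMIs, held 36.4% of the counts, and mature DCs, with 16, 0, 8 and 6, held 27.3%. The low value with ADU-S100 thus went with the mature DCs, at 16 UMIs untreated and 0 there.

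Gfra2 differed with the antibody in both classes. Macrophages and monocytes held 36, 21, 163 and 117 UMIs, at 1.38, 0.522, 4.53 and 4.67 CPM, so the antibody libraries were the high ones and the ADU-S100 library the low one. The ratios were 0.383 (0.210 to 0.667), 3.26 (2.28 to 4.86) and 3.36 (2.32 to 5.07). With the mix held fixed the antibody ratios remained at 3.10 and 2.85, whereas the ADU-S100 ratio was 0.614 (0.352 to 1.07), an interval that includes no difference, beside a shift ratio of 0.590. That value depended on how subsets were drawn, since it was 0.397 with subsets from a marker score of each cell and 0.456 at doubled resolution, both past 2-fold. The MHC class II and Ccr2 monocyte-like cells held 67.4% of the UMIs, at 6.57, 3.38, 15.8 and 14.6 CPM, and their antibody ratios were 2.37 (1.56 to 3.81) and 2.19 (1.42 to 3.57). That subset joined 2 clusters, and the smaller, led by Retnla, Kcnq1 and Aldh1a2 with 3 of 7 markers, had 43 of 614, 15 of 532, 151 of 1348 and 212 of 1607 cells, so the mix inside the subset also differed between libraries.

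DCs held 55, 39, 209 and 123 Gfra2 UMIs, at 11.8, 11.55, 47.1 and 47.7 CPM. The antibody libraries were about 4 times higher than the others, with ratios of 0.984, 3.97 (2.96 to 5.48) and 4.03 (2.92 to 5.67). Over named subsets alone the ADU-S100 ratio was 5.87, and 4.89 within them, both past 2-fold. The within-subset ratios were 0.940, 3.53 and 3.31 and the shift ratios 1.06, 0.863 and 1.02, so the difference lay inside subsets. In cDC2-like cells the gene was counted 1, 8, 90 and 44 times, and the anti-LTβR ratio of 23.5 (6.14 to 1402) and the combination ratio of 19.1 (4.82 to 1142) rest on that single untreated UMI among 25 cells. An unnamed DC cluster led by Chl1, Pi16 and Cd209e gave a firmer base, with 28, 9, 74 and 30 UMIs, 80.6, 40.5, 310 and 178 CPM, and antibody ratios of 3.81 (2.46 to 6.18) and 2.20 (1.27 to 3.83). A second unnamed cluster, led by Cxcl10 and Ifit1, was at 2.51 and 3.87 times its untreated level.

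Levels in other cells bear on this gene. Thinned shares of cells with a Gfra2 UMI were 0.241, 0.0850, 0.670 and 0.703% in macrophages against 0.158, 0, 0.0158 and 0.164% in T cells, so the antibody libraries were above this background. The low ADU-S100 ratio of macrophages did not hold against it, at 1.1 in place of 0.383 with T cell levels subtracted. Carcinoma-like cells held 60.8, 45.3, 97.1 and 101.5 CPM of Gfra2, more than either myeloid class, while the carcinoma list stood at 0.516 to 0.696% of its own level in macrophages and 2.26 to 7.48% in DCs. Macrophages with a Gfra2 UMI carried the DC list at 344, 395, 713 and 515 CPM against 136 to 219 CPM in the others. DCs with a Gfra2 UMI carried the macrophage list at 817.5, 522, 1499 and 2070 CPM against 763, 756, 985 and 1192 CPM in the other DCs. The part of mixed droplets in these values was not tested.

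Fat3 had the lowest ratios of the 8 members under the antibody in macrophages. It had 349, 419, 150 and 58 UMIs, at 13.4, 10.4, 4.17 and 2.31 CPM. The combination library was the lowest, anti-LTβR alone the next, and the untreated and ADU-S100 libraries were highest. The ratios were 0.780 (0.675 to 0.901), 0.313 (0.256 to 0.379) and 0.175 (0.129 to 0.230), the within-subset ratios 1.32, 0.407 and 0.222, and the shift ratios 0.825, 0.682 and 0.827. Thinned shares of cells with a UMI ran in the order of 1.64, 1.06, 0.415 and 0.328%, against 0 to 0.235% in T cells. Of the subsets with at least 10 UMIs, 5 of 5 were lower with anti-LTβR and 4 of 4 with the combination.

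The Fat3 difference was seen in several subsets, of which 2 of 5 were past 2-fold with anti-LTβR and 4 of 4 with the combination. Over named subsets alone the anti-LTβR ratio within subsets was 0.513, no longer past 2-fold. The unnamed Mb21d2, Zdhhc14 and Agmo cluster held 32.7% of the UMIs, with 120, 172, 15 and 12 counts, 77.4, 152, 16.7 and 11.3 CPM, and antibody ratios of 0.222 (0.117 to 0.370) and 0.152 (0.0735 to 0.265). C1q macrophages held 98, 131, 33 and 16 UMIs, at 12.2, 17.9, 7.28 and 3.81 CPM, with a combination ratio of 0.320 (0.171 to 0.531). In the Mmp12 and Gpnmb subset the levels were 39.8, 12.97, 24.4 and 7.78 CPM, so the ADU-S100 library was also low there, at 0.326 (0.233 to 0.456) of untreated. The ADU-S100 level of the unnamed cluster rested in part on 1 cell, which held 86 of its 172 UMIs. Without the cell of most UMIs in each library, the log2 within-subset ratio of ADU-S100 over the class was 0.05 in place of 0.40.

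In DCs Fat3 was rare, with 5, 0, 28 and 5 UMIs. The 0 of the ADU-S100 library allows up to 0.889 CPM, the level of 3 counts. The anti-LTβR level of 6.31 CPM against 1.07 CPM untreated gave a ratio of 5.45 (2.25 to 19.5), but it was 1.05 with equal weight for each cell, 13 of the 28 UMIs came from 1 cell, only 6 cells had any, and those cells carried the macrophage list at 3142 CPM against 1028 CPM in the other DCs of that library.

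**Figure D3:**
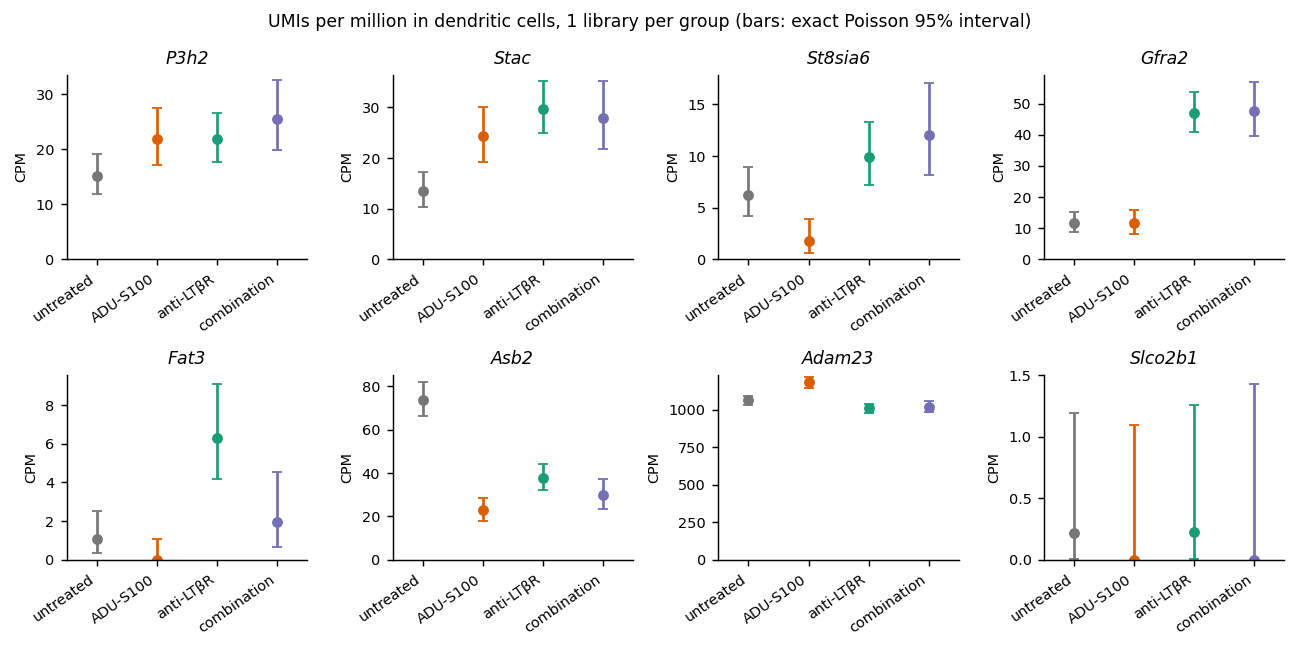
CPM (linear axis from 0) of each of the 8 genes summed over the dendritic cells of the 4 libraries, with exact Poisson 95% intervals as bars. Gfra2 stands near 47 CPM in both libraries that received the antibody and near 12 in the others, Asb2 is highest untreated (73.9), and Adam23 lies between 1010 and 1183 in all 4.

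Adam23 was by far the most counted member and mostly a DC gene. DCs held 4956, 3993, 4485 and 2629 UMIs, at 1061, 1183, 1010 and 1020 CPM, and the ratios of 1.11 (1.07 to 1.16), 0.952 and 0.961 show nearly level sums. Within-subset ratios of 1.02, 0.940 and 0.932 and shift ratios of 1.09, 0.997 and 1.00 were as close to 1. Levels ranged widely between DC subsets instead. An unnamed cluster that also carried the neutrophil list at 5640 to 8680 CPM had 4682, 5739, 3250 and 2560 CPM of Adam23, the Chl1 and Cd209e cluster 2953, 3407, 3086 and 3644, mature DCs 1132, 1176, 910 and 738, cDC1-like cells 369, 260, 509 and 580, and pDC-like cells 340, 503, 282 and 167. The cDC1-like ratios were 0.706 (0.579 to 0.852), 1.38 (1.20 to 1.58) and 1.57 (1.36 to 1.81), all under 2-fold. In cDC2-like cells the untreated library was the exception, at 13.02 CPM from 3 UMIs in 25 cells against 636, 328 and 818 CPM in 18, 75 and 86 cells, with ratios of 42.0 (16.3 to 240), 21.7 (8.51 to 123) and 53.9 (21.3 to 306).

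In macrophages Adam23 had 236, 126, 214 and 258 UMIs, at 9.03, 3.13, 5.95 and 10.3 CPM, and the ADU-S100 library was the low one. Its ratio of 0.347 (0.277 to 0.432) was split between the mix, with a shift ratio of 0.554, and the levels, with a within-subset ratio of 0.668 (0.531 to 0.841) that was not past 2-fold. Cycling cells held 69.2% of the UMIs, at 64.5, 46.8, 75.9 and 64.7 CPM, with ratios of 0.728 (0.548 to 0.953), 1.18 (0.950 to 1.46) and 1.00 (0.802 to 1.26), none past 2-fold, and their share of class UMIs was smallest with ADU-S100 (4.09%). At doubled resolution, a cycling cluster of 87 cells in this class was led by Cdh17, Gcsam, Gpr33 and the cDC1 marker Xcr1, so cells with DC genes stood among the cycling cells. C1q macrophages had 27, 2, 2 and 4 UMIs. Macrophages with an Adam23 UMI carried the DC list at 1322, 1081, 1314 and 1254 CPM against 130.2 to 211 CPM in the others, and less of the macrophage list, 6722 to 12980 CPM against 17736 to 21550. These cells therefore held genes of both classes, and whether they were mixed droplets was not tested. T cells held 0.304 to 1.09 CPM of the gene, and neutrophils 0, 1.82, 27.7 and 0.582 CPM, which with anti-LTβR was above the macrophages.

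Stac was higher in every treated library. Macrophages held 37, 117, 121 and 152 UMIs, at 1.42, 2.91, 3.36 and 6.07 CPM, and T cells 0 to 0.304 CPM. Neutrophils held 1.77, 0.9495, 5.201 and 3.49 CPM from 2 to 12 UMIs, above macrophages in the untreated and anti-LTβR libraries. The ratios were 2.04 (1.41 to 3.06), 2.36 (1.63 to 3.54) and 4.24 (2.98 to 6.32). Within subsets they were 2.47, 3.01 and 4.24, and the shift ratios of 0.775, 0.709 and 0.881 lay on the other side of 1, so the change of mix worked against the difference. C1q macrophages had 12, 19, 29 and 32 UMIs, at 1.496, 2.59, 6.40 and 7.61 CPM, with antibody ratios of 4.18 (2.12 to 9.20) and 4.96 (2.55 to 10.9). In the Mmp12 and Gpnmb subset 1, 10, 27 and 27 UMIs were counted, and the ratios of 10.2 (2.48 to 616) and 15.5 (3.77 to 937) rest on the single untreated UMI. Where each cell was given equal weight, the ratios for ADU-S100 and anti-LTβR over the class were 1.45 and 1.7, under 2-fold. The within-subset ADU-S100 ratio was then 1.84, also under 2-fold. With the clusters led by another class put back, the ADU-S100 log2 ratio over the class was 0.998, just under the line.

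In DCs Stac had 63, 82, 132 and 72 UMIs, at 13.5, 24.3, 29.7 and 27.9 CPM, with ratios of 1.80, 2.19 and 2.07 and within-subset ratios of 1.51, 2.004 and 1.51, of which the second was under 2 at 7 alternative settings. Over named subsets alone the ADU-S100 ratio was 2.52, and 2.34 within them, both past 2-fold. The summed calls were also near the line: the anti-LTβR ratio was 1.67 and the combination ratio 1.76 with equal weight for each cell, and the combination call was lost at 3 more settings, at 1.84, 1.97 and 2.15, the last with an interval that included no difference. The untreated library was the lowest in this class too. An unnamed cluster led by Scel and Cdh17 held 42.4% of the UMIs at 51.3, 41.3, 70.3 and 83.1 CPM, and the intervals of all its ratios, 0.808 (0.457 to 1.40), 1.36 (0.878 to 2.18) and 1.62 (0.956 to 2.74), included no difference. A cluster of 7, 4, 5 and 19 cells led by Cd207, a marker of Langerhans-type cells, had the highest levels, 127, 127, 663 and 202 CPM, from 6 to 24 UMIs per library. Carcinoma-like cells held Stac at 46.7, 96.5, 41.4 and 76.9 CPM, also above both myeloid classes. The carcinoma list stood in DCs at 18.2, 50.05, 29.7 and 36.85 CPM, lowest in the untreated library as well. The part of carcinoma RNA in the DC values of Stac was not tested.

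Asb2 was lower in both classes of every treated library. Macrophages held 264, 67, 180 and 130 UMIs from 177, 51, 132 and 105 cells, at 10.1, 1.66, 5.00 and 5.19 CPM, and the ADU-S100 library was the lowest. The ratios were 0.166 (0.124 to 0.216), 0.496 (0.408 to 0.601) and 0.515 (0.413 to 0.636). The anti-LTβR value lay at the line. It was 0.505 over named subsets alone and 0.562 with the clusters led by another class put back. The combination was past 2-fold, at 0.444, with equal weight for each cell. With the mix held fixed the ADU-S100 ratio was 0.282 (0.212 to 0.374), still past 2-fold, while those of anti-LTβR and the combination were 0.923 (0.759 to 1.12) and 0.716 (0.575 to 0.891), beside shift ratios of 0.612, 0.546 and 0.695. The anti-LTβR difference in macrophages therefore came almost wholly with the mix, and the ADU-S100 difference did not. C1q macrophages, 54% of the UMIs, had 20.1, 4.78, 19.2 and 14.98 CPM, with ratios of 0.241 (0.160 to 0.345), 0.959 (0.728 to 1.25) and 0.75 (0.549 to 1.005). Cycling cells, 27.3% of the UMIs, had 24.8, 8.51, 26.6 and 13.9 CPM, with an ADU-S100 ratio of 0.353 (0.178 to 0.616).

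T cells held more Asb2 than macrophages in every library, 12.7, 9.59, 14.5 and 11.2 CPM, and after thinning 2.56, 2.10, 2.35 and 1.91% of T cells against 1.57, 0.243, 0.685 and 0.892% of macrophages had a UMI. By that comparison the macrophage share did not exceed that of T cells. With T cell levels subtracted, the macrophage level was 0 in every library. The ADU-S100 and anti-LTβR ratios of 0.649 and 0.727 then rested only on the added 0.5 UMI and do not measure the gene. B cells held only 0 to 0.630 CPM and neutrophils 0 to 1.17 CPM of the gene, and NK cells 11.2, 3.34, 4.19 and 1.86 CPM, which was also highest in the untreated library. The part of background in the macrophage values was not tested.

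DCs had higher Asb2 levels than macrophages in every library, with 345, 77, 168 and 77 UMIs at 73.9, 22.8, 37.8 and 29.9 CPM. The untreated library was the highest and the ADU-S100 library again the lowest. The ratios were 0.310 (0.238 to 0.396), 0.513 (0.423 to 0.618) and 0.406 (0.312 to 0.519), and the second was past 2-fold at 3 other settings, at 0.383 to 0.499. Within subsets they were 0.472, 0.652 and 0.492, and the shift ratios were 0.835, 0.792 and 0.896, so most of the difference lay inside subsets. In cDC1-like cells, which held 64.2% of the UMIs, levels were 172, 110, 118 and 96.0 CPM, with ratios of 0.644 (0.472 to 0.856), 0.688 (0.531 to 0.879) and 0.562 (0.407 to 0.754). The Scel and Cdh17 cluster went from 94.6 to 23.1, 51.55 and 26.8 CPM, and the Cxcl10 and Ifit1 cluster from 69.0 CPM (50 UMIs) to 4.23, 7.03 and 33.4 CPM. Over the named DC subsets alone the within-subset ratios of ADU-S100 and the combination were 0.643 and 0.564, under 2-fold.

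Slco2b1 was counted mostly in macrophages, with 261, 128, 300 and 104 UMIs there and 1, 0, 1 and 0 in DCs. The macrophage levels were 9.98, 3.18, 8.34 and 4.15 CPM, so both libraries that received ADU-S100 were low. The ratios were 0.319 (0.256 to 0.395), 0.835 (0.705 to 0.990) and 0.417 (0.328 to 0.524). At a fixed mix they were 0.664 (0.534 to 0.825), 0.787 and 0.597 (0.472 to 0.753), none past 2-fold, and the shift ratios were 0.541, 0.939 and 0.6995. Folr2 macrophages held 51.1% of the UMIs, at 70.8, 91.2, 78.4 and 60.0 CPM, and their ratios of 1.29 (0.917 to 1.80), 1.10 (0.857 to 1.44) and 0.854 (0.564 to 1.25) all had intervals that included no difference. Their share of class UMIs was lowest in the same libraries, 1.77 and 2.59% against 4.54% untreated. C1q macrophages did differ, at 9.35, 3.28, 4.41 and 2.38 CPM, with ratios of 0.355 (0.212 to 0.561), 0.481 (0.273 to 0.781) and 0.265 (0.117 to 0.494). How the ADU-S100 difference divides between mix and level depended on how subsets were drawn: the within-subset ratio was 0.41 with subsets from a marker score of each cell, 0.416 at doubled resolution and 0.476 with equal weight for each cell. Cells with a Slco2b1 UMI had 27352 to 32900 CPM of the macrophage list against 17177 to 20931 in the others, and also more of the DC list, 236, 336, 478.5 and 344 CPM against 133 to 223. T cells had 0 to 0.799 CPM of the gene. Neutrophils had 2.65, 0.317, 1.73 and 9.32 CPM, which with the combination was above the macrophages. Mast cells and basophils, given below, were also above the macrophages.

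**Figure D4:**
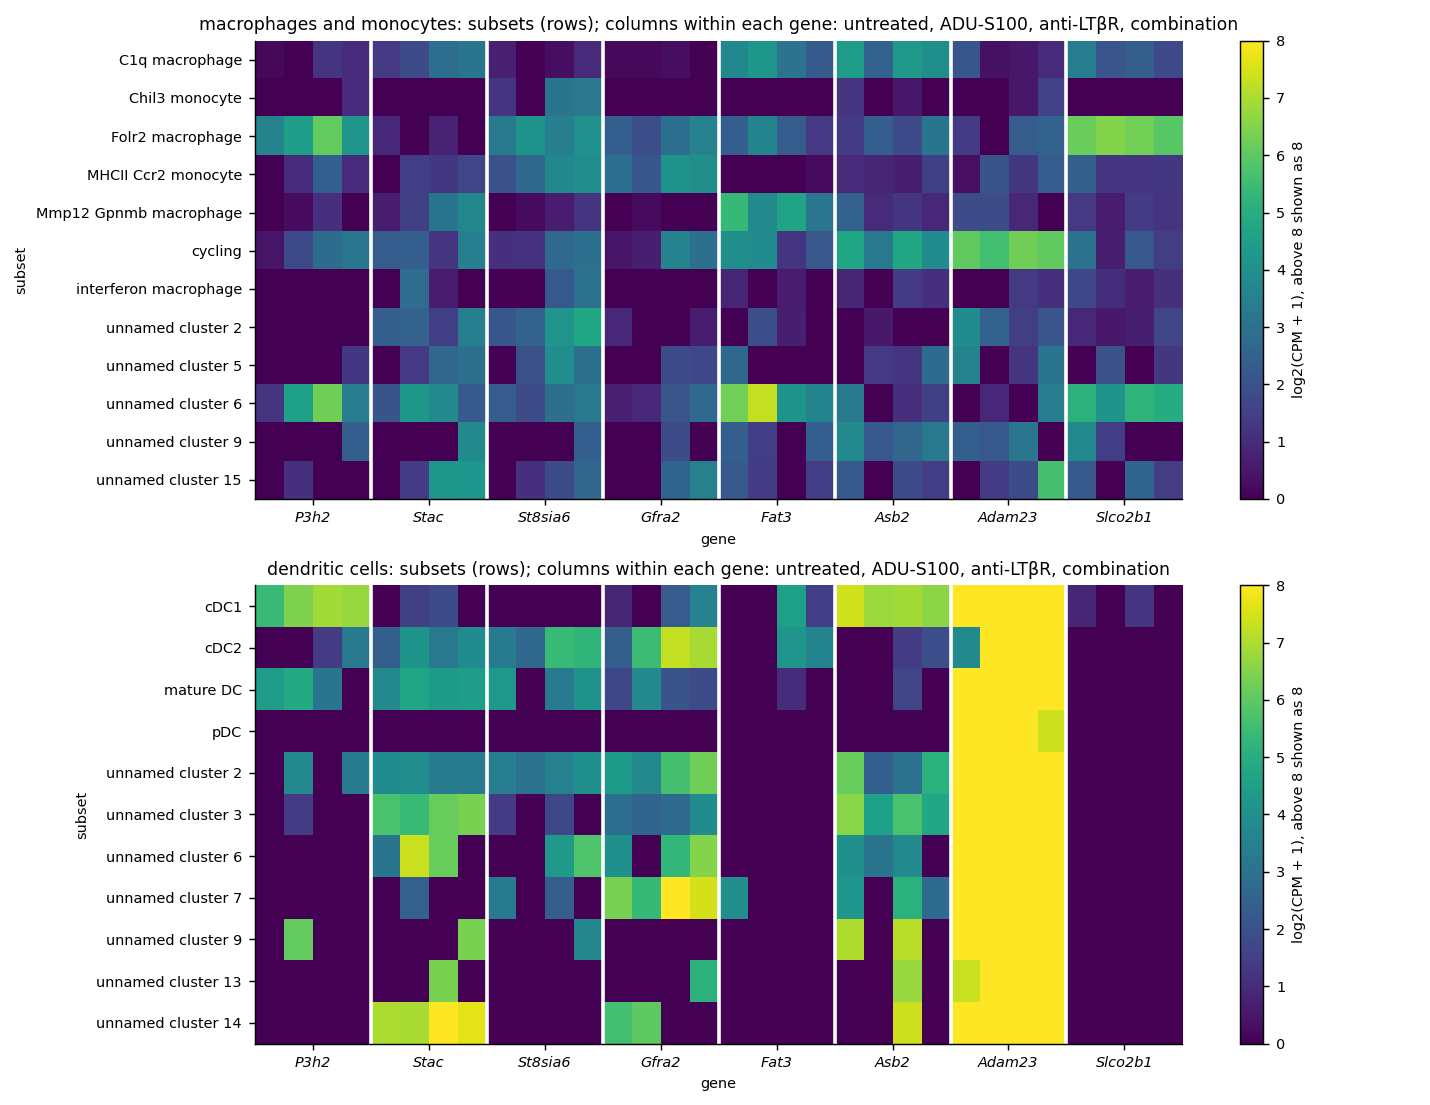
Levels of the 8 genes as log2(CPM + 1), capped at 8, in each macrophage, monocyte and dendritic subset (rows, without 1 macrophage subset) of the 4 libraries (columns within each gene). P3h2 and Slco2b1 are bright in Folr2 macrophages, P3h2 and Asb2 in cDC1-like cells, Gfra2 in cDC2-like cells of the antibody libraries, and Adam23 across dendritic subsets and in cycling cells of the macrophage class, which include cells with DC genes.

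The combination library can also be set against each agonist alone. It shares its antibody with one library and its STING agonist with another, and its macrophage levels over those of anti-LTβR alone were 0.242 (0.175 to 0.323) for P3h2, 0.499 (0.394 to 0.624) for Slco2b1 and 0.558 (0.403 to 0.756) for Fat3, against 1.80 for Stac, 1.73 (1.44 to 2.08) for Adam23, 1.41 for St8sia6, 1.03 for Gfra2 and 1.04 for Asb2. Over ADU-S100 alone they were 8.78 for Gfra2, 5.45 for St8sia6, 3.28 for Adam23, 3.11 for Asb2 and 0.224 for Fat3. For Gfra2, St8sia6 and Fat3 the combination thus lay nearer to the antibody alone than to ADU-S100 alone, for Slco2b1 nearer to ADU-S100, and for P3h2 the high level of the antibody library was not found in the combination. In DCs the combination over anti-LTβR ratio was 1.18 for P3h2, 0.943 for Stac, 1.22 for St8sia6, 1.02 for Gfra2 and 0.792 for Asb2, and the interval for Adam23 was 0.962 to 1.06. For Fat3 it was 0.332 (0.0927 to 0.807), from 28 and 5 UMIs, and its interval alone among these left out 1.

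Of all kept cells, macrophages, monocytes and DCs held 89.9 to 96.6% of the Adam23 UMIs, 82.3 to 97.3% of Fat3, 74.4 to 95% of Slco2b1, 68.9 to 89.9% of P3h2 and 61.8 to 82.9% of Asb2. They held 46.3 to 60.2% of Stac and 45.5 to 64.6% of Gfra2, of which carcinoma-like cells held much of the rest, and only 23.1 to 36.6% of St8sia6, which was mainly in B cells. Mast cells and basophils, 12 to 29 cells per library, had 143 to 423 CPM of Slco2b1 and 70.0 to 528 CPM of Asb2.

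Few relatives of the members in the same pathways were past 2-fold. Of 12 collagen hydroxylation genes, 7, 9 and 7 had at least 200 UMIs in the macrophage comparisons, and P3h2 with anti-LTβR was the only one past 2-fold. Of 24 ASB proteins, ligase parts and filamins, 13, 14 and 12 had enough UMIs, and Asb2, lower with ADU-S100 and, at the line, with anti-LTβR, was again the only one. Of 12 ADAM genes, 8 had enough UMIs in each comparison, and besides Adam23 with ADU-S100 only Adam22, another protease-dead member, was past 2-fold, higher with the combination at 2.06 (1.69 to 2.52) and 2.60 within subsets. Of 7 FAT and Dachsous cadherins only Fat3 was counted often enough. Ret and the ligands of the Gfra2 family and the other Stac genes stayed under 200 UMIs in both classes.

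Among 11 sialyltransferases and Siglec receptors, 3, 5 and 5 were counted often enough in macrophages. Siglec1, the sialic acid receptor CD169 of macrophages, was lower at 0.499 (0.464 to 0.535) with ADU-S100 and 0.499 (0.464 to 0.537) with anti-LTβR from 68.3 CPM untreated, and at 0.683 and 0.646 within subsets. In DCs Siglech, a pDC marker, was at 0.333 (0.280 to 0.392) with the combination but 0.816 within subsets, the pDC-like share of UMIs being 6.55% untreated and 2.55% there. Of 13 SLCO transporters, 3, 2 and 2 had enough UMIs in macrophages, and Slco4a1, which transports thyroid hormone, was higher with ADU-S100 at 4.37 (2.99 to 6.79) and 2.75 within subsets, opposite to Slco2b1.

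The genes with the most similar pattern to each member were found by Pearson r of log2(CPM + 1) over 72 subset-by-library sums among 11813 genes. These points share libraries and depth, and the r values are descriptions. Adam23 was most like Spint2 (0.942), Siglecg (0.918) and Pkib (0.905), and Slco2b1 most like Cltc (0.865), Cp (0.848) and C6 (0.845). Asb2 was nearest to Ckb (0.771), Fat3 to Ptprm (0.747), St8sia6 to Celf4 (0.746), Stac to Nr4a3 (0.738), Gfra2 to Cd226 (0.704) and P3h2 to Adam22 (0.687).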

How the data were processed

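The authors aligned the reads and deposited raw UMI counts per gene and cell. Per the labels and the submitters' processing notes the reference was mm10 and the tool Cell Ranger 7.1.0, while the file headers name version 8.0.1, and the study's methods name another 5′ kit than the labels. All matrices entered. Cells with 300 to 5000 genes and at most 6% mitochondrial UMIs were kept, as in the study's methods. The automatic Scrublet threshold marked at most 1 cell per library, so the highest-scoring cells were removed instead, 252 to 1031 per library at a rate set by the number of cells in each matrix. Cells were clustered in scanpy 1.11.5 (2000 variable genes, 30 components, 20 neighbours, Leiden resolution 1), named from at least 3 markers and re-clustered by class. A cluster's names come from these marker lists and may differ from the study's.

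Levels are UMIs summed over cells per 1000000 UMIs (CPM). Gene spans are from GENCODE on GRCm38. Ratios add 0.5 UMI to each sum and carry exact binomial intervals, and within-subset ratios use the untreated subset shares with log-normal intervals. The ratio step was tested on simulated data. With 1 library per group no test was run. Depth was lowest in the combination library (median 2157.5 UMIs per cell, against 3187 to 4712), so shares of cells were also computed after thinning to 2000 UMIs, beside T cells. The members and all lists were chosen with earlier results of these data known. The named genes are the 8 members, relatives past 2-fold at 200 UMIs or more, and the genes most like each member, at most 3 each, over sums of at least 50 cells. Alternatives covered doublets, subset definition, the total behind CPM, the weight of cells, single cells, depth, background, the count added and the standard mix. Versions were Python 3.11.15, numpy 2.4.6, scipy 1.17.1, pandas 2.3.3, leidenalg 0.10.2 and matplotlib 3.10.9. One macrophage subset entered every fit but is not reported here.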

Additional observations from a re-analysis of the deposited data

Results flagged for a closer look

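Fat3 with anti-LTβR lay on opposite sides of untreated in the 2 classes, at 0.313 of the untreated level in macrophages and monocytes and at 5.45 times that level in dendritic cells, where 13 of 28 UMIs came from 1 cell and the ratio was 1.05 with equal weight for each cell. Adam23 with ADU-S100 was at 0.347 of untreated in macrophages and monocytes and at 1.11 in dendritic cells. With 1 library per group, the difference between the classes was not tested for either gene.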

How the results depend on the processing

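No paired analysis was possible because each group is 1 library. With the T cell CPM of the same library subtracted, the number of member ratios past 2-fold in macrophages and monocytes was 10 (5 higher, 5 lower) in place of 17, and within subsets 6 (4 higher, 2 lower) in place of 13. Not all of these calls were lost through a smaller ratio: those of P3h2 and of Gfra2 with the combination within subsets (5.67 against 2.85) were lost only because the interval widened. Under that setting St8sia6 with anti-LTβR turned to a log2 ratio of -0.46 both summed and within subsets, since its level was then 0 in both libraries and only the added 0.5 UMI was left, and Gfra2 with ADU-S100 turned to 0.131. The other lost calls of St8sia6 and those of Asb2 in macrophages also came from levels of 0. Over the other settings the counts ran from 15 to 18 summed and 12 to 15 within subsets in macrophages, and from 8 to 12 summed and 7 to 10 within subsets in dendritic cells, where T cell subtraction gave 7 and 8. Of 1104 recomputed member values, 1003 stayed within their counting interval, 98 left it, and 3 that had been past 2-fold changed direction. Of the named ratios, Gfra2 with ADU-S100 in dendritic cells went from 0.984 to 5.87 when only named subsets entered, Fat3 with anti-LTβR in dendritic cells from 5.45 to 1.05 with equal weight for each cell, and Slco2b1 with ADU-S100 within macrophage subsets from 0.664 to 0.41 with subsets by marker score. The cause was not tested. At a minimum of 50 UMIs the share of all genes past 2-fold was 7.69, 3.23 and 3.43% in macrophages and 3.04, 2.24 and 3.3% in dendritic cells. The put-back clusters and the restriction to named subsets were chosen after seeing the data. Depth limits the rarer members, several of which had under 60 UMIs in a class and library.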
